A study of Homo sapiens with 6 samples.

Results

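The genes described here build and load the peptides that MHC class I molecules display. They are TAP1, TAP2, TAPBP, TAPBPL, PSMB8, PSMB9, PSMB10, PSME1, PSME2 and ERAP1, named by symbol and matched to Ensembl identifiers. All 10 were listed, among 20330 Ensembl genes, and 9 of them entered the test. RNA sequencing was done on U251, an established human glioblastoma cell line. Control U251 cells were set against U251 cells with stable overexpression of LncRNA XLOC013218, a long noncoding RNA, with 3 libraries per group. No drug treatment is named for either group, and what the control cells carry, how the RNA was overexpressed and whether the lines are single clones are not given in the sources used here. Nothing says that replicates came from separate clones, so p-values measure the spread between these libraries only.

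Class I molecules show the cell's own protein fragments to CD8 T cells. Proteasomes cut the proteins, the TAP1-TAP2 transporter moves the fragments into the endoplasmic reticulum, ERAP1 trims them there, and tapasin (TAPBP) and its relative TAPBPL help to choose which fragment is kept. Interferon replaces the catalytic subunits of the standard proteasome with PSMB8, PSMB9 and PSMB10, which makes the immunoproteasome, and raises the PA28 activator made of PSME1 and PSME2. Interferon acts on many of these genes through the interferon-stimulated response element (ISRE), bound by IRF and STAT factors. Tumour cells often lower this pathway, and glioma cells can raise it again on interferon exposure.

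TAP1 and PSMB9 lie head to head on chromosome 6, and both rose. Their start sites are 488 bases apart, so the 250 bases before each start cover the whole of the DNA between them, with 13 bases shared at the far ends. The sequences are from RefSeq on GRCh38.p14 and run 5′ to 3′ on the gene's own strand. The submitters' processing notes name another build, hg18. In TAP1 (chr6:32853705-32853954, minus strand), capitals mark the ISRE core, searched as GAAANNGAAA on both strands, which occurs there as a pair of overlapping matches in the reverse direction. In PSMB9 (chr6:32853942-32854191, plus strand), which holds no match to that core, capitals mark the GC box GGGCGG, the letters bound by SP1.
TAP1: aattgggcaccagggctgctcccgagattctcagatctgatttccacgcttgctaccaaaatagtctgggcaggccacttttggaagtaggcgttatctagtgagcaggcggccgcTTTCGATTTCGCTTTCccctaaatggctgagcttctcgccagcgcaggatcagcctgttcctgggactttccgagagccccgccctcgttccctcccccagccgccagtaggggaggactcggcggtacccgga
PSMB9: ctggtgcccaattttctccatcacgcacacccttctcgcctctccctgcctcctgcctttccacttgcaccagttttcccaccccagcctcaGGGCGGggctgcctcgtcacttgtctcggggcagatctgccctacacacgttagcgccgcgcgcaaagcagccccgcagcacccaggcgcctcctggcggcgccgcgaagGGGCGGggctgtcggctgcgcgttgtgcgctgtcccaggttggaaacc

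Genes that rose and genes that did not pass the test held the same element. RefSeq windows of 300 bases (250 before and 50 from the start site on) were found for all 10 genes, 14 windows in all because some genes have a second start. The ISRE core was present in 8 of the 14 windows (57.1%), belonging to 8 of the 10 genes, against 3.57% of all 35116 windows in the table. The genes without a match in these windows were PSMB9 and TAPBPL. The matches of TAP1 lie between its start site and that of PSMB9. They are thus also upstream of PSMB9, but farther from its start than the 250 bases of its window. The stretches that follow show the matches outside TAP1 in capitals, with 10 bases on each side. They lie at chr6:32838778-32838807 for TAP2, chr6:32844032-32844061 for the second listed start of PSMB8, chr16:67936852-67936881 for PSMB10, chr14:24136189-24136218 for PSME1, chr14:24146619-24146648 for PSME2, chr6:33314073-33314108 for TAPBP and chr5:96807924-96807953 for ERAP1. PSME1 is on the plus strand and the others are on the minus strand.
TAP2: ctggggaagcGAAAGCGAAAgctgcccgag
PSMB8: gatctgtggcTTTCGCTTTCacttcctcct
PSMB10: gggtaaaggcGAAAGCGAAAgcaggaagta
PSME1: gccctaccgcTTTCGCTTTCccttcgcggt
PSME2: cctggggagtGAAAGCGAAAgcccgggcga
TAPBP: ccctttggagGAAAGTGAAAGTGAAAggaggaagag
ERAP1: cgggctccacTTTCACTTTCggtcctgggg
The exact letters GAAAGCGAAA, on either strand, were shared by 6 genes, TAP1, TAP2, PSMB8, PSMB10, PSME1 and PSME2. Only 35 of the 35116 windows held them (0.0997%). These letters were singled out after the sequences were seen. The GC box was in 11 of the 14 windows (78.6%), against 45.0% of all windows, the CCAAT box in 3 (34.6% of all windows) and the interferon gamma element GAS, searched as TTCNNNGAA, in 2 (7.66% of all windows). The CCAAT matches of TAP1 and PSMB9 are the same site, within the 13 bases that their windows share, so it was counted in both. A match is a description of letters and was not tested for binding.

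Of the transporter genes, TAP1 rose and TAP2 did not pass. TAP1 (ENSG00000168394, chromosome 6), a subunit of the peptide transporter, was at 45.64, 49.36 and 45.06 FPKM in the control libraries (in the order of their replicate numbers, as in all that follows). It was at 74.19, 64.95 and 89.44 FPKM in the overexpression libraries. FPKM is a fragment count corrected for the length of the transcript and the size of the library. Every overexpression library lay above every control library. In bulk RNA, more cells expressing a gene and more RNA per cell cannot be told apart. The means were 46.7 ± 2.33 and 76.2 ± 12.4 FPKM (SD, n = 3 per group). On the log2(FPKM + 1) scale TAP1 rose by 0.68 (SE 0.10, limma adjusted p = 0.0302).

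TAP2 (ENSG00000204267, chromosome 6), the partner that completes the transporter, was at 36.84, 52.51 and 31.64 FPKM in the controls, against 66.51, 51.18 and 88.45 FPKM with overexpression. The groups overlapped, because control replicate 2 lay just above overexpression replicate 2. The log2 difference of 0.75 was as large as that of TAP1, but with an SE of 0.21 it did not pass (limma adjusted p = 0.169). The spread of TAP2 in control cells, with an SD of 10.9 FPKM, was several times that of TAP1. Within each library TAP1 was between 94.0% and 142% of TAP2 in control and between 101% and 127% in overexpressing cells, and the ratio did not differ beyond its spread (exact permutation test, two-sided, p = 0.8, n = 3 per group).

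Tapasin levels lay close together in both groups. TAPBP (ENSG00000231925, chromosome 6), which bridges class I molecules to TAP, was at 88.74, 85.18 and 80.54 FPKM in the controls, against 90.39, 74.81 and 91.74 FPKM with overexpression. Both the highest and the lowest of these values belonged to overexpression libraries. The log2 difference was 0.01 with a 95% interval from -0.17 to 0.19 (limma adjusted p = 0.975), and it turned to -0.01 after rescaling to TPM. That interval lies below the whole interval of TAP1, 0.46 to 0.91, although the difference between the genes was not itself tested. TAPBPL (ENSG00000139192, chromosome 12), a peptide editor that works outside the TAP complex, was at 0.56, 0.35 and 0.43 FPKM in the controls, against 0.49, 0.53 and 0.27 FPKM with overexpression. Its mean stayed under the 1 FPKM needed for the test, with overlapping groups.

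**Figure D1:**
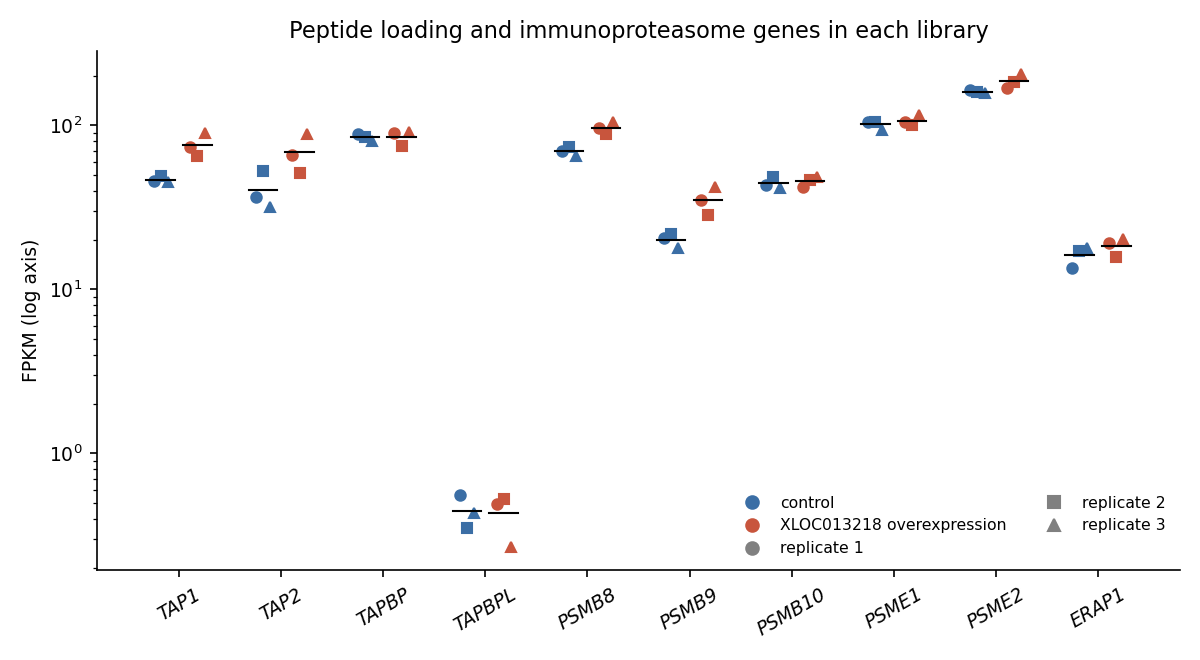
FPKM (log axis) of the 10 genes in each of the 6 libraries, with blue points for control, red points for overexpression, a marker shape for each replicate number and a black line for the group mean. The red points of TAP1, PSMB8, PSMB9 and PSME2 all lie above the blue ones, and TAPBPL lies below 1 FPKM in every library.

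Of the 3 catalytic subunits of the immunoproteasome, 2 rose. PSMB9 (ENSG00000240065, chromosome 6), also known as LMP2, was at 20.49, 21.73 and 17.95 FPKM in the controls, against 34.96, 28.60 and 42.13 FPKM with overexpression. No overexpression value fell within the control range. The group means were 20.1 ± 1.93 and 35.2 ± 6.77 FPKM (SD, n = 3 per group), and the log2 difference of 0.77 (SE 0.13) passed in limma (adjusted p = 0.0384).

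PSMB8 (ENSG00000204264, chromosome 6), or LMP7, carries the chymotrypsin-like activity of the immunoproteasome. Its control values were 69.87, 74.30 and 65.46 FPKM and its overexpression values 96.90, 88.48 and 105.31 FPKM. The groups were apart here too, with means of 69.9 ± 4.42 and 96.9 ± 8.415 FPKM (SD, n = 3 per group). PSMB8 rose by 0.46 on the log2 scale (SE 0.07, limma adjusted p = 0.0328).

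PSMB10 (ENSG00000205220, chromosome 16), or MECL1, is the inducible trypsin-like subunit and the only one of the 3 encoded outside the MHC. It was at 43.18, 48.42 and 41.76 FPKM in the controls, against 42.08, 46.22 and 48.62 FPKM with overexpression. These ranges lay almost on top of each other. The log2 difference was 0.04 with a 95% interval from -0.13 to 0.20 (limma adjusted p = 0.876).

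The PA28 subunits, which open the proteasome, did not pass the test. PSME2 (ENSG00000100911, chromosome 14), PA28 beta, was at 163.83, 159.68 and 157.49 FPKM in the controls, against 170.04, 185.05 and 205.03 FPKM with overexpression. All overexpression values were higher than all control values, but the log2 difference of 0.21 (SE 0.07) did not pass (limma adjusted p = 0.218). PSME1 (ENSG00000092010, chromosome 14), PA28 alpha, was at 105.40, 105.25 and 94.43 FPKM in the controls, against 105.26, 100.11 and 115.25 FPKM with overexpression, with overlap (log2 difference 0.07, limma adjusted p = 0.715). The ratio of PSME1 to PSME2 was 63.4% ± 3.08 in control and 57.4% ± 4.04 in overexpressing cells (SD, n = 3 per group), with overlap (exact permutation test, two-sided, p = 0.2). Processed copies of PSME2 exist in the genome and were not analysed here, so their share of its reads is unknown.

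ERAP1 (ENSG00000164307, chromosome 5), the aminopeptidase that trims peptides to the length class I molecules hold, was at 13.46, 17.17 and 17.82 FPKM in the controls, against 19.26, 15.88 and 20.27 FPKM with overexpression. Overexpression replicate 2 lay inside the control range and the others lay above it. The log2 difference was 0.19 with a 95% interval from -0.08 to 0.46 (limma adjusted p = 0.570).

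Counted together, 3 of the 9 tested genes rose, 0 fell and 6 did not pass. Of all 11731 tested genes and loci, 0.520% passed in either direction and 0.315% were higher. At an unadjusted p under 0.05 there were 5 of the 9 genes and 1491 of all tested. In 4 of the 9 the overexpression values lay wholly above those of the controls, as in 8.81% of all genes and loci tested. The median log2 difference was 0.21 over the 9 genes and -0.00078 over all tested. Over all genes the 61 calls were 37 higher and 24 lower, and 30 higher and 31 lower after rescaling to TPM, with TAP1, PSMB8 and PSMB9 among the higher in the main fit.

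The calls depended on the libraries and on settings of the test. Leaving out control replicate 1, 2 or 3 or overexpression replicate 1 left 0 of the 9 past the threshold in limma, leaving out overexpression replicate 3 left TAP1 alone, and leaving out overexpression replicate 2 left the same 3. With low genes kept in, with no trend in limma or with the replicate number as a block, 0 of the 9 passed. With the block the limma adjusted p was 0.0674 for TAP1, 0.0907 for PSMB8 and 0.0907 for PSMB9. Their log2 differences moved less: over the 6 fits with a library left out, TAP1 stayed between 0.56 and 0.79, PSMB9 between 0.64 and 0.91, and PSMB8 between 0.40 and 0.53.

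**Figure D2:**
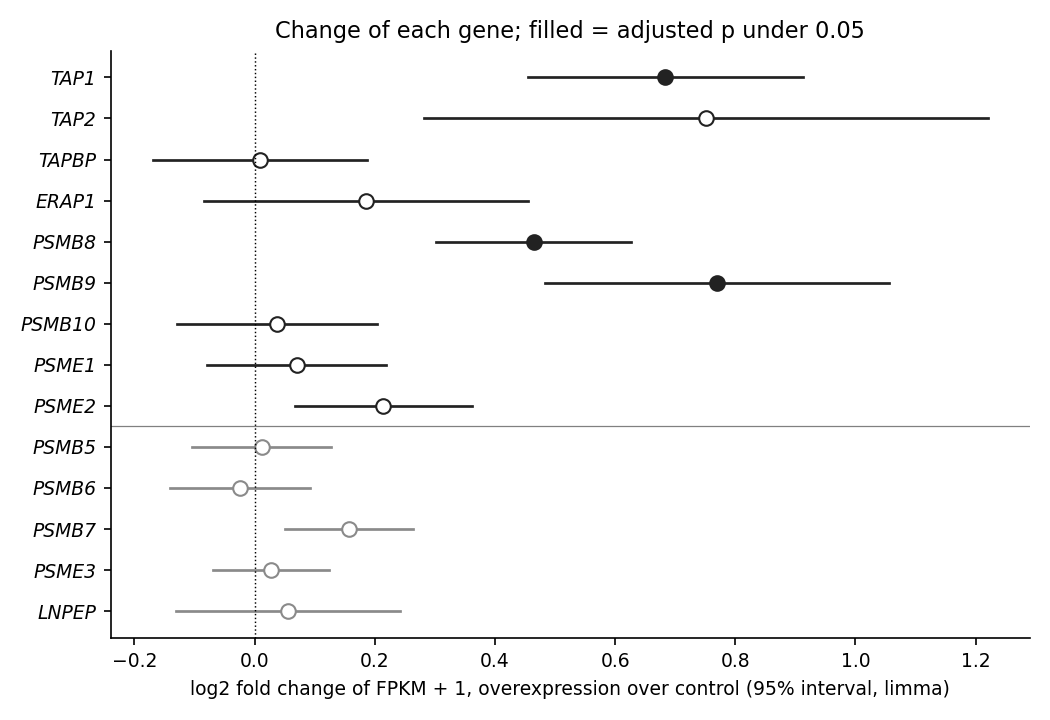
Log2 fold change of FPKM + 1 (overexpression over control) with its 95% interval from limma, for the 9 tested genes in black and for standard proteasome subunits, PSME3 and LNPEP in grey. Filled circles passed an adjusted p of 0.05, namely TAP1, PSMB8 and PSMB9, while the interval of TAP2 is the widest.

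The standard proteasome subunits gave a reference within each library, since a ratio within a library does not depend on the scaling between libraries. PSMB5, PSMB6 and PSMB7 are the subunits that PSMB8, PSMB9 and PSMB10 replace. They were at 146 ± 3.38, 234 ± 10.8 and 192 ± 6.92 FPKM in the controls, against 147 ± 8.04, 229.9 ± 8.98 and 214 ± 7.01 FPKM in overexpressing cells (SD, n = 3 per group), and none of them passed (limma adjusted p = 0.946, 0.891 and 0.209). PSMB7 was at 196.93, 195.12 and 184.14 FPKM in the controls, against 214.39, 221.22 and 207.20 FPKM with overexpression, so its groups did not overlap, whereas those of PSMB5 and PSMB6 did.

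PSMB9 was 8.45%, 9.16% and 8.09% of PSMB6 in the control libraries, in the order of their replicate numbers, and 14.9%, 12.1% and 19.2% with overexpression. The inducible form thus remained the minor one of this pair in RNA in all 6 libraries. PSMB8 was 47.8%, 49.8% and 45.9% of PSMB5 in control and 62.0%, 61.0% and 74.8% in overexpressing cells. The groups did not overlap for either pair. For PSMB10 against PSMB7 the means were 23.1% ± 1.499 and 21.3% ± 1.96 (SD, n = 3 per group), with overlap.

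On the log2 scale the ratio was higher by 0.82 for PSMB9 to PSMB6 and by 0.46 for PSMB8 to PSMB5, and it differed by -0.12 for PSMB10 to PSMB7, a pair in which the denominator was the one whose groups lay apart. Exact two-sided permutation tests gave p = 0.1 for both of the former, the smallest that 3 libraries against 3 allow, and p = 0.3 for the last. Adjusted over the 8 ratios computed, these were 0.4, 0.4 and 0.6. PSME1 to PSME3, the PA28 gamma activator of the nucleus, was at 55.4% ± 2.79 and 57.2% ± 5.41, and ERAP1 to LNPEP, an aminopeptidase of the endosome, at 121% ± 12.9 and 134% ± 17.4 (SD, n = 3 per group). Both of these pairs overlapped, as did TAPBPL to TAPBP at 0.525% ± 0.110 and 0.515% ± 0.208.

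**Figure D3:**
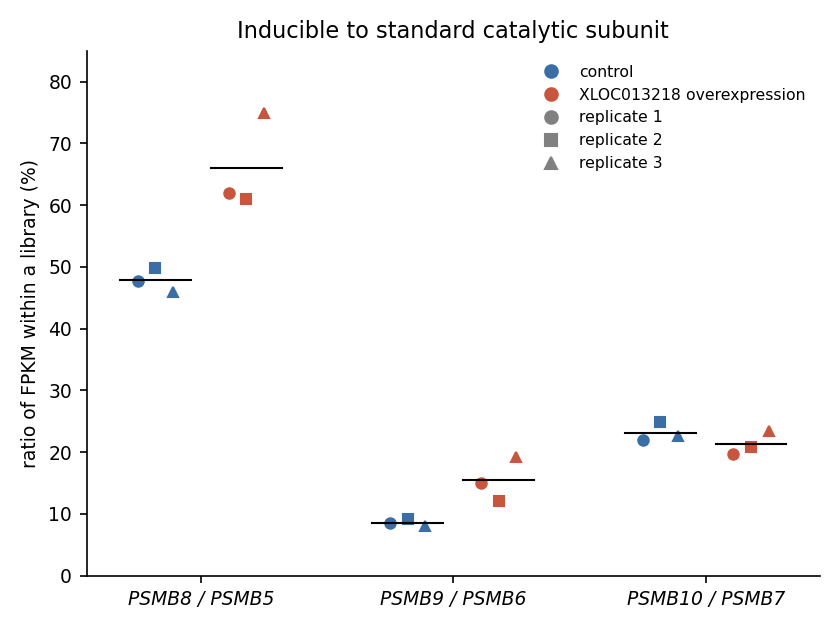
FPKM of each inducible catalytic subunit as a percentage of the standard subunit it replaces, per library, with group means as black lines and the axis starting at 0. Control and overexpression are apart for PSMB8 to PSMB5 and PSMB9 to PSMB6 and overlap for PSMB10 to PSMB7.

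The overexpression libraries differed among themselves in a shared way. For 7 of the 9 tested genes, replicate 3 was the highest, replicate 1 the next and replicate 2 the lowest, an order found in 15.0% of all tested genes. The exceptions were PSMB10 and PSME2, in which replicate 1 was the lowest. All 6 tested class I chain genes had the order of the 7. The mean deviation of the 9 genes from their control mean was 0.34, 0.19 and 0.53 on the log2 scale with overexpression and -0.02, 0.11 and -0.08 in the controls. Control replicate 2 was the highest control library for 5 of the 9, and the share of all tested genes with that feature was not computed. The order was noticed in the data and is a description.

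**Figure D4:**
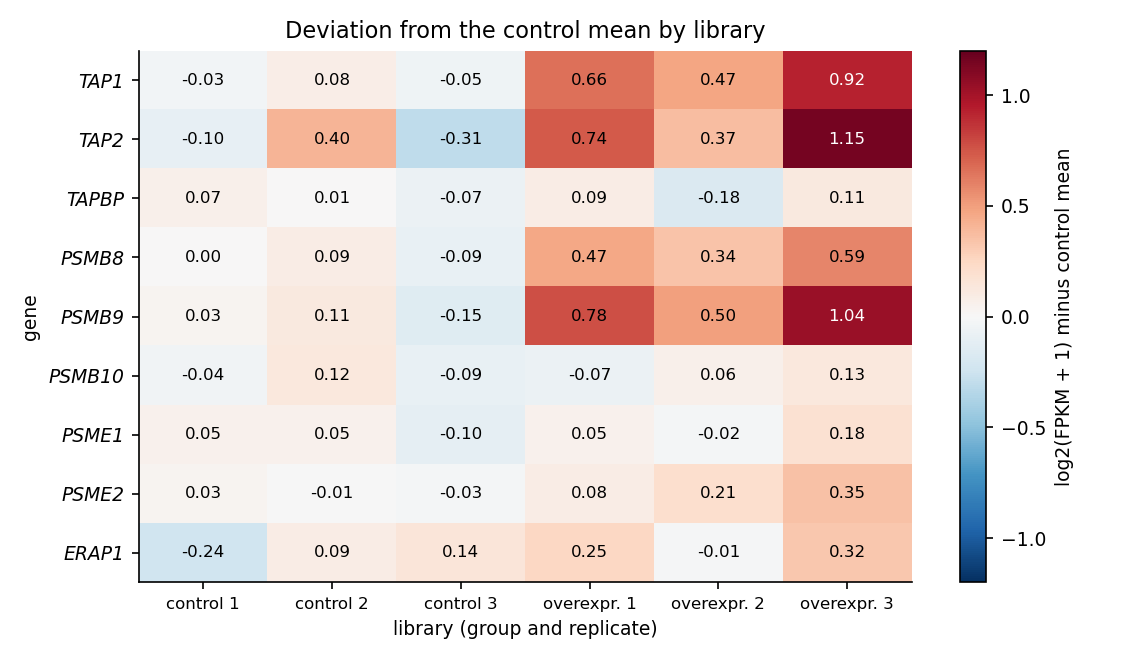
Deviation of log2(FPKM + 1) from the control mean, for the 9 tested genes (rows) in the 6 libraries (columns), with red for higher and blue for lower. TAP1, TAP2, PSMB8 and PSMB9 are red in all 3 overexpression libraries, deepest in replicate 3, while TAPBP, PSMB10 and PSME1 stay pale.

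The 3 genes that rose are neighbours, with TAP2, which did not pass, beside them. TAP2, PSMB8, TAP1 and PSMB9 follow each other on chromosome 6 in RefSeq's order, within the class II part of the MHC. This comparison was added after the values were seen. Genes that did not enter the test were passed over, so nearest refers to order along the chromosome and not to distance. The 10 nearest tested genes on each side, with TAPBP as the outermost on one side, had 0 calls in limma and 0 at an unadjusted p under 0.05. Over all 11731 genes and loci tested, 0.520% were called, so 0 of 20 is near that share, and 1491 were at an unadjusted p under 0.05. In none of the 20 did the groups separate, while over all tested 1034 lay wholly above and 1180 wholly below. The log2 differences of the 20 lay between -0.16 and 0.30 with a median of -0.0062. PBX2, a homeobox gene, was the nearest tested gene on one side, at 17.9 and 17.5 FPKM on average in control and overexpressing cells. BRD2, a bromodomain protein, was the nearest on the other, at 129.9 and 134 FPKM. PSMB8 overlaps an antisense gene, not analysed here. The libraries are labelled as stranded, but no source used here says whether strand was used in counting, so reads of the pair may be mixed. HLA-DOB, which lies beside TAP2, was under 0.5 FPKM in every library.

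**Figure D5:**
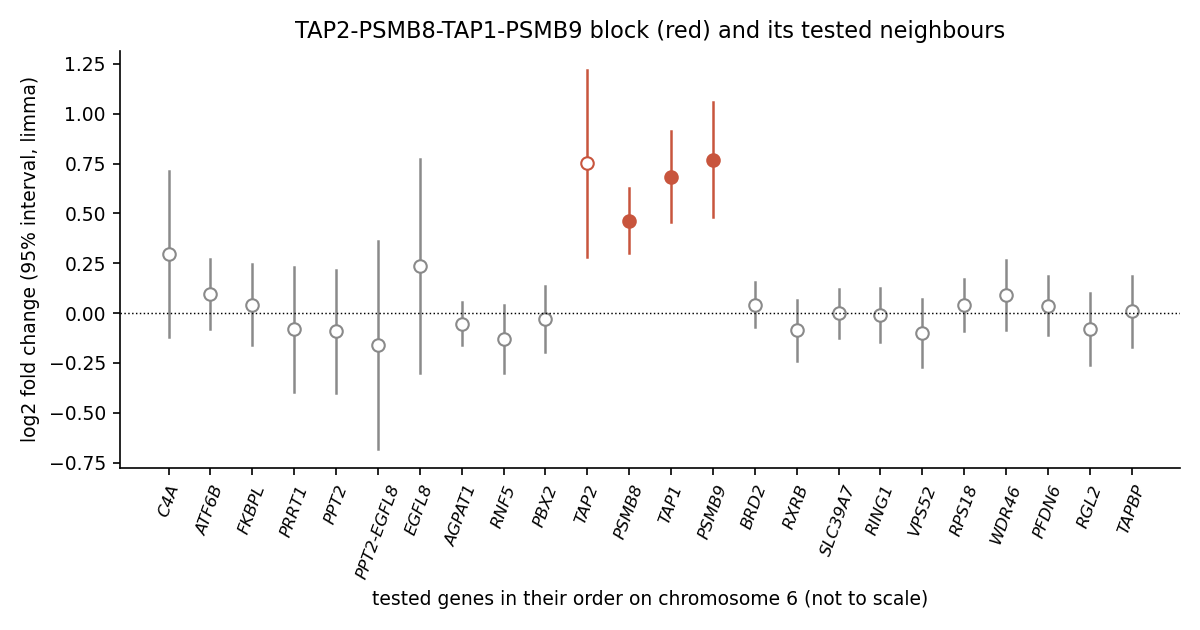
Log2 fold change with its 95% interval from limma for TAP2, PSMB8, TAP1 and PSMB9 (red) and the 10 nearest tested genes on each side (grey), in their order on chromosome 6, not to scale. The 4 red intervals lie above 0, and every grey interval spans 0.

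The class I chains that these genes serve lay above their control values in every overexpression library, for all 6 chain genes tested. Of these, HLA-B and HLA-C rose and 4 did not pass, with a median log2 difference of 0.57. Over all genes and loci tested, 8.81% lay wholly above and 0.315% were called higher. HLA-B was at 154.04, 164.48 and 150.83 FPKM in the controls, against 405.15, 310.16 and 497.64 FPKM with overexpression. Class I genes are alike in sequence, and how reads were shared out among them is not known.

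Of 7 tested chaperones and glycan enzymes of class I folding, HSPA5, an endoplasmic reticulum chaperone of general use, rose by 0.42 (limma adjusted p = 0.0139) and 6 did not pass. At an unadjusted p under 0.05 there were 3. In 3 the overexpression values lay wholly above the controls, namely HSPA5, CALR and CANX, while GANAB lay wholly below. Over all 11731 genes and loci tested, 0.315% were called higher and 1491 were at an unadjusted p under 0.05. There, 8.81% lay wholly above and 1180 wholly below. CALR, which sits beside tapasin in the loading complex, was at 791 ± 21.7 and 935 ± 11.5 FPKM (SD, n = 3 per group; limma adjusted p = 0.0537), and CANX, which holds new class I chains, at 583.11, 587.97 and 568.39 FPKM in the controls, against 620.50, 642.09 and 637.22 FPKM with overexpression (limma adjusted p = 0.257). PDIA3, the disulphide partner of tapasin, was at 229 ± 15.4 and 243 ± 6.35 FPKM (limma adjusted p = 0.596). Overexpression replicate 2 was the highest overexpression library in HSPA5, CALR, CANX and GANAB. It was the lowest in PDIA3, UGGT1 and PRKCSH, as in TAP1. These orders were noticed in the data and are a description. CALR, CANX, PDIA3, GANAB, UGGT1 and PRKCSH were named after their values were seen.

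Among 9 other peptidases that make or destroy class I peptides, limma called 0, with 2 at an unadjusted p under 0.05. Over all 11731 genes and loci tested, 0.520% were called and 1491 were at an unadjusted p under 0.05. LAP3, a cytosolic leucine aminopeptidase induced by interferon gamma, was at 77.28, 75.02 and 77.55 FPKM in the controls, against 92.25, 93.50 and 114.16 FPKM with overexpression, without overlap (limma adjusted p = 0.0845). It is named here after its values were seen. HM13, a signal peptide peptidase, was at 139 ± 3.77 and 143 ± 3.78 FPKM, and THOP1, a cytosolic oligopeptidase, at 93.4 ± 5.45 and 92.6 ± 2.74 FPKM (SD, n = 3 per group). Of 7 tested genes for proteasome assembly and its inhibitor, limma called 0, and 0 were at an unadjusted p under 0.05. POMP, the assembly chaperone that favours the immunoproteasome, was at 62.4 ± 2.13 and 67.8 ± 3.50 FPKM (SD, n = 3 per group; limma adjusted p = 0.414). PSMF1, the inhibitor PI31, was at 78.7 ± 6.63 and 83.9 ± 2.49 FPKM (SD, n = 3 per group; limma adjusted p = 0.6001).

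Of 9 tested regulators known to act on these promoters, 1 rose, against 0.315% of all genes and loci tested. It was NLRC5, the class I transactivator, with a log2 difference of 0.50 (SE 0.09, limma adjusted p = 0.0429). Its values were 13.62, 13.43 and 13.35 FPKM in the controls, against 20.20, 17.21 and 21.40 FPKM with overexpression. IRF1, the factor best known for driving TAP1 and PSMB9, was at 44.0 ± 0.780 and 46.6 ± 3.60 FPKM (SD, n = 3 per group), with overlap (limma adjusted p = 0.667). CIITA, the class II transactivator, was under 0.5 FPKM in all libraries. IRF1 was named after its values were seen.

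The genes whose profile over the 6 libraries was most like that of TAP1 were IFI6, ISG15, MX1, IFITM1 and OAS1. Likeness was the root mean square difference of the deviations from the control mean, on the log2(FPKM + 1) scale, which was 0.035, 0.041, 0.047, 0.052 and 0.060. All 5 belong to the well-known interferon-stimulated genes. Ranked among all tested genes with a symbol, PSMB9 came at place 7, PSMB8 at 37 and TAP2 at 53, while PSMB10 came at 3428 and TAPBP at 4120. The size of the change enters this measure, so these places are not separate from the log2 differences given above. ISG15, a ubiquitin-like protein, averaged 839 ± 71.2 FPKM in the controls and 1319 ± 193 FPKM with overexpression (SD, n = 3 per group).

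Immune cells hold the immunoproteasome constitutively, so their markers were read beside these results. Of 12 leukocyte and microglia markers, HLA-DRA, CD3E and TYROBP were among those listed at 0 in all 6 libraries. The 12 summed to between 8.59 and 9.79 FPKM in control and to between 12.2 and 13.8 FPKM in overexpressing cells. Most of that sum was CD68, a lysosomal protein that tumour lines express too, at 7.19 ± 0.4996 and 10.1 ± 0.847 FPKM (SD, n = 3 per group; limma adjusted p = 0.0831). CD14, a monocyte receptor, was at 1.07 ± 0.447 and 1.04 ± 0.155 FPKM. PTPRC, the pan-leukocyte protein CD45, was at 0.13, 0.17 and 0.15 FPKM in the controls, against 0.65, 0.39 and 0.52 FPKM with overexpression. The part of these markers in the results was not tested. Of the endothelial and neuron markers, CDH5, VWF and RBFOX3 were under 1 FPKM in every library, while the synaptic genes SYT1 and SNAP25 were at 7.76 ± 0.670 and 2.07 ± 0.251 FPKM in the controls and at 8.45 ± 1.32 and 1.92 ± 0.275 FPKM with overexpression. Of the glioma line markers, VIM, CD44, SOX2 and NES were present in all libraries (VIM was at 3502 FPKM or more in each), S100B was under 1 FPKM in each, and all 6 tested had a negative log2 difference, none past the threshold in limma and 3 at an unadjusted p under 0.05. In SOX2, EGFR and GFAP the overexpression values lay wholly below the controls, as in 1180 of all 11731 genes and loci tested. SOX2, a stem cell factor, averaged 116 ± 2.44 FPKM in the controls, against 102 ± 3.37 FPKM with overexpression (SD, n = 3 per group; limma adjusted p = 0.120). EGFR, a growth factor receptor, averaged 27.1 ± 0.368 and 24.0 ± 1.15 FPKM (SD, n = 3 per group; limma adjusted p = 0.288). GFAP, the astrocyte filament protein, was at 34.68, 45.98 and 44.13 FPKM in the controls, against 30.05, 14.36 and 20.43 FPKM with overexpression (limma adjusted p = 0.107). The part of these differences in the results was not tested.

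Across the series, FPKM summed to between 598683 and 621922 over the Ensembl genes of a library. FPKM carries no read totals. From the spacing of low values the relative depth of the libraries was estimated at 0.77 to 1, with overlap between the groups, so depth in reads is unknown and no counting interval is given. The share of Ensembl genes listed at 0 did separate the groups, at 22.6% to 23.3% in the controls and 21.5% to 21.9% with overexpression, and its part in the results was not tested.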

How the data were processed

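Gene expression was read from 1 table per library, 3 control and 3 overexpression, grouped by sample title. The authors deposited FPKM values with 2 decimals. Tools listed in the submitters' processing notes, without roles, are Cufflinks 2.2.1, RSEM 1.3.1, TopHat, Bowtie and edgeR, with the build hg18. Per the labels' protocols the libraries were stranded and poly(A)-selected, while the series' design text describes cytoplasmic RNA without that selection, and this was not resolved. An incomplete last line in 5 tables was not read. It lies after the Ensembl genes.

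Genes and loci present in every table and averaging 1 FPKM or more over the 6 libraries (11731) were compared by limma-trend (limma 3.58.1, R 4.3.3) on log2(FPKM + 1), two-sided, with Benjamini-Hochberg adjustment over all of them and a threshold of 0.05. The pseudocount understates changes of low genes. An exact permutation test of 3 against 3 cannot go below p = 0.1. The fit was tested on simulated data. Ratios and motifs used Python 3.11.15 and scipy 1.17.1. Symbols matched 19447 of 20330 identifiers, and chromosomes are from GENCODE.

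The genes and lists were chosen with earlier results of these data known. All 10 genes are named. Other lists contribute counterparts in ratios and up to 4 called genes each, or else their 2 most abundant. The 5 genes most like TAP1 are also named. Other names were chosen after their values were seen. Alternatives were other filters, pseudocounts, scalings and variance models, a replicate block and leaving out each library. Some genes of the lists are not reported here.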

Additional observations from a re-analysis of the deposited data

How the results depend on the processing

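The 3 calls (TAP1, PSMB8 and PSMB9) remained with a mean filter of 5 FPKM, pseudocounts of 0.1 and 0.5, rescaling to TPM, quantile normalization and array quality weights. PSMB9 passed only narrowly after rescaling to TPM, with a limma adjusted p that rounds to 0.05. With quantile normalization its limma adjusted p was 0.0473. The number of called genes of the group was 0 when low genes were kept in, 0 when limma was run with no trend and 0 with the replicate number as a block, and between 0 and 3 when 1 library was left out. Over all genes there were 22 calls with low genes kept in (3 of them among the 61), 1 with no trend (1 among the 61), 197 with array quality weights (61) and 19 with the replicate block (15), and between 1 and 60 when 1 library was left out. The cause was not tested, except that leaving out a library leaves fewer samples. The limma adjusted p ranged over all alternatives from 0.0141 to 0.237 for TAP1, 0.0204 to 0.234 for PSMB8 and 0.0141 to 0.261 for PSMB9, each with an unchanged sign. With the replicate number as a block the limma adjusted p was 0.0674 for TAP1, 0.0907 for PSMB8 and 0.0907 for PSMB9. Same-numbered libraries did not deviate together, with correlations between -0.0576 and 0.0446 across tested genes, so the numbers were not taken as pairs.

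Small differences changed sign. TAPBP went to -0.00507 after rescaling to TPM and lay between -0.043 and 0.10 when 1 library was left out. PSMB10 lay between -0.00838 and 0.0993 in those fits. Of the log2 ratios, when 1 library was left out, TAP1 to TAP2 lay between -0.237 and 0.0626, TAPBPL to TAPBP between -0.373 and 0.261, and PSME1 to PSME3 between -0.0279 and 0.106. The depth in reads is unknown, so the precision of TAPBPL, under 1 FPKM, could not be given.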
